A study of Mus musculus with 12 samples.

Results

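Whole-hippocampus homogenates collected on day 6 were compared between the arm L and the arm C of a mouse study of learning and memory, with 3 libraries in each arm out of 12 libraries in the whole series. The 6 libraries were taken by their labels and column headers, and all 17458 genes listed for them entered. All animals were of strain C57BL6/J, and the headers call the C columns control and the L columns training. The labels state neither the age of the mice nor what they went through before day 6. Libraries are written C1, C2 and C3 and L1, L2 and L3 after arm and replicate. Whether each library is a different mouse is not stated, and the p-values below therefore reflect the spread among these libraries, which may be technical.

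Learning changes transcription in the hippocampus in waves. Immediate early genes such as Fos, Egr1 and Arc respond to synaptic activity within minutes and return to baseline within hours, whereas later waves alter synaptic, chaperone and metabolic transcripts. A whole homogenate mixes the RNA of neurons, glia, vessels and any choroid plexus or meninges that stay attached, so in such bulk samples a change in the number of cells of a type and a change in their RNA content cannot be told apart.

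Total counts ran from 9100192 (L3) to 15950350 (C3). A count of 0 allowed up to 0.188 to 0.330 CPM (library-size-scaled counts, for single genes also adjusted by the trimmed mean of M-values, TMM), a limit that covers counting error only. Markers of hippocampal neurons and of astrocytes were present in every library, with Camk2a, a kinase of excitatory synapses, between 2649 and 3707 CPM and Prox1, a marker of dentate granule cells, between 116 and 193 CPM. Several libraries also held transcripts of other tissues or stood apart in other ways.

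L1 held liver transcripts. Alb, which encodes serum albumin, had 21975 counts in L1 and 0 in each of the other 5 libraries. Fibrinogen beta chain (Fgb) stood at 266 CPM in L1 and at 0 in the others. Of 124 genes listed as liver transcripts, 61 had counts in L1 alone, 101 had a share of the counts in L1 over 10 times that in any other library, and 22 entered the test. Summed over the liver enzyme and transporter list, L1 was at 2301 CPM, the C libraries were at 223 to 231 CPM, and L2 and L3 were at 216 and 217 CPM. Liver-list genes took 0.961% of the counts of L1 and 0.158 to 0.335% of those of the other libraries, where most came from Ttr, which the choroid plexus also makes. Most counts over lists are therefore given with all 6 libraries and without L1, as are the log2 differences of some genes. Where only 1 log2 difference is given for a gene, it is that of all 6 libraries.

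By its counts, C1 was not independent of C2 and C3. Among 13647 genes tested, C1 held the middle value of its arm for 72.4%, against 10.8% for C2 and 16.7% for C3, while L1, L2 and L3 held the middle of theirs for 34.7%, 29.3% and 36.1%. Across the 10108 genes averaging 100 counts or more, the counts of C1 were close to the sum of 0.51 times those of C2 and 0.56 times those of C3. The median squared residual of that sum was 0.627 of what counting noise in 3 independent libraries would give, and it was 0.590 to 0.653 in each of 6 ranges of mean count from 20 upward. The 57 other ways of writing 1 library as a sum of 2 others that did not take all 3 C libraries had residuals of 1.81 to 16.0 times counting noise. Only 29 of the 10108 genes lay beyond 3 standard deviations of the sum, among them mt-Co3, with 1890 counts in C1 against 7249 from the sum, and Actg1, with 8832 against 6420. C1 thus differed from a weighted sum of C2 and C3 by less than the sampling noise of independent libraries. The fits of all 6 libraries and without L1 count C as 3 independent libraries, so their SEs and p-values may be too small. The counts of the main lists are therefore also given without C1 or without both C1 and L1. Fits that left out C2 or C3 kept C1 beside the other, so their C libraries were not independent either. How these counts arose was not tested.

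**Figure D1:**
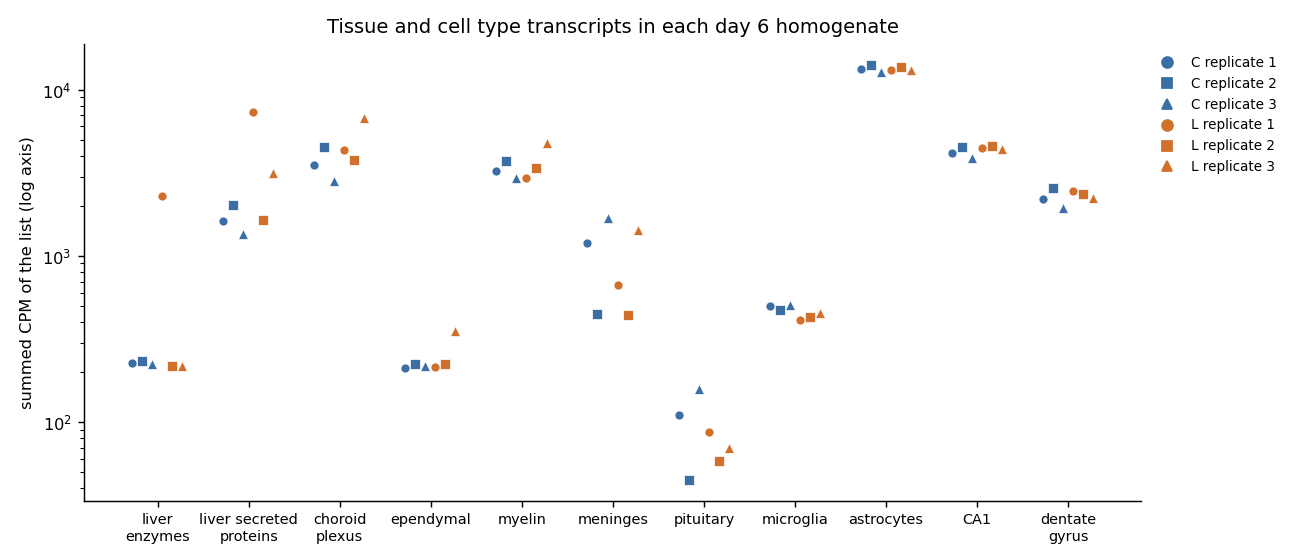
Summed CPM (log axis) of lists of tissue and cell type transcripts in each of the 6 day 6 homogenates, with 1 point per library, blue for C and orange for L. L1 lies far above the rest for both liver lists, L3 is highest for choroid plexus, ependymal and myelin transcripts, and C2 and L2 are lowest for meningeal transcripts.

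Between the arms, no gene passed the adjusted threshold. Of 13647 genes tested by the quasi-likelihood test of edgeR, 0 had an adjusted p under 0.05 (0.0% called), the smallest adjusted p was 0.467, and 1217 had an unadjusted p under 0.05. Of these, 650 were higher in L (4.76%) and 567 lower (4.15%), or 8.92% in either direction. Without L1, 0 of 13783 genes passed (0.0%) and 1175 had an unadjusted p under 0.05 (8.52%), with 624 higher (4.53%) and 551 lower (4.0%). Without C1, 383 of 13873 genes had an unadjusted p under 0.05 (2.76%), with 229 higher (1.65%) and 154 lower (1.11%), and the smallest adjusted p was 1. Without both C1 and L1 it was 252 of 13656 (1.85%), with 148 higher (1.08%) and 104 lower (0.762%). Without C3 it was 761. The count that all 6 libraries gave thus moved by over 1.5 times when C1 or C3 was left out. DESeq2 called 13 of 13638 genes with all 6 libraries (0.0953%), 5 without L1 (0.0363%), 0 without C1 and 2 without both (0.0146%). The direction shares stated here, the percentages of all genes tested, are the background against which each list is read below. The lists were chosen with earlier results of these data known, and their members were read in the same libraries. List counts are therefore descriptions, and members are not independent observations.

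The genes with the smallest p in each direction were small to moderate differences in genes of varied function. The naming rule took genes averaging 5 CPM or more whose L values all lay on one side of the C values, a separation that 1081 genes showed upward (7.92%) and 1066 downward (7.81%), and ranked them by p, keeping 12 per direction. Those higher in L included Mtf1, the transcription factor that answers zinc, Acer2, a ceramidase of the Golgi, and Cdh19, a cadherin of glia. Also higher were Col4a3, a collagen of basement membranes, the GTPase-activating protein gene Arhgap31, the nuclear m6A reader Ythdc1, and Mafg, a small Maf partner of stress-responsive transcription factors. Ythdc1 lies on chromosome 5 (86804221 to 86836659, plus strand) and Ttc21a on chromosome 9 (119937606 to 119967793, plus strand) of GRCm38.

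Mtf1 stood at 43.8, 48.8 and 45.8 CPM in C1, C2 and C3 and at 65.6, 63.2 and 64.0 CPM in L1, L2 and L3. The L libraries lay close together and, as the naming rule required, above all of C. The log2 difference was 0.48 (SE 0.09, unadjusted p = 0.000297). It was 0.47 without L1 (unadjusted p = 0.00115) and 0.44 without C1 (unadjusted p = 0.00451). Ythdc1 stood at 53.6, 55.6 and 54.1 CPM in C and 81.1, 73.0 and 67.7 CPM in L, again with no overlap, and L1 was the highest. Its log2 difference was 0.44 (SE 0.09), and 0.37 without L1. Acer2 was at 4.80, 4.83 and 6.13 CPM in C and 13.1, 10.7 and 10.1 CPM in L, a difference of 1.10 (SE 0.21) with all 6 libraries and 0.92 without C1 and L1. Col4a3 stood at 4.46, 4.01 and 3.55 CPM in C and at 9.70, 7.55 and 9.81 CPM in L, a difference of 1.17 (SE 0.22).

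Ttc21a, an intraflagellar transport component, was at 3.79, 4.37 and 4.29 CPM in C and 7.24, 8.84 and 10.2 CPM in L, and Dnah2, an axonemal dynein heavy chain, was at 13.3, 13.1 and 12.7 CPM in C and 21.2, 18.2 and 26.2 CPM in L. Both were highest in L3, the library highest for ependymal transcripts, whose list median fell from 0.38 to -0.02 without L3. Over fits that left out 1 library, the log2 difference ran from 0.95 to 1.20 for Ttc21a and from 0.60 to 0.86 for Dnah2. Whether ependymal content had a part in the values of these genes was not tested. Their place above all of C in L1 and L2 was required by the naming rule. The log2 difference was 1.08 (SE 0.23) for Ttc21a and 0.74 (SE 0.16) for Dnah2, and 1.14 and 0.78 without C1 and L1. Map3k19, a kinase, was at 6.76, 6.29 and 9.44 CPM in C and 14.6, 13 and 15.3 CPM in L.

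The 12 genes lower in L were of varied function. Pdcd10, an adaptor mutated in cerebral cavernous malformation (chromosome 3, 75516490 to 75556856, minus strand), was at 57.6, 57.7 and 57.4 CPM in C and 42.6, 45.3 and 41.3 CPM in L. C2 and C3 were nearly equal, as was C1, whose counts were close to a weighted sum of theirs. All of L lay below C, as the rule required of all 12 genes. The log2 difference was -0.42 (SE 0.09, unadjusted p = 0.000835). It was -0.42 without C1 (unadjusted p = 0.00734) and -0.41 without C1 and L1 (unadjusted p = 0.0203). Vps11, a core subunit of the endosomal tethering complexes, was at 67.6, 65.2 and 65.7 CPM in C and 50, 51.6 and 51.0 CPM in L, with no overlap. Slc25a53, a mitochondrial carrier family member, was at 9.40, 9.57 and 10.1 CPM in C and 6.01, 5.15 and 5.12 CPM in L. Its log2 difference of -0.83 (SE 0.19) had the widest size of the 12. Ran, the small GTPase of nuclear transport, was at 161, 139 and 164 CPM in C against 120, 124 and 117 CPM in L. Id2, an inhibitor of basic helix-loop-helix factors, was at 88.8, 75.5 and 92.2 CPM in C against 64.9, 62.0 and 66.4 CPM in L. For Ran and Id2 the C2 value was the nearest to L. The other 7 were Zfp46, Ufc1, Ebag9, Tusc3, Gba2, Cmas and Usp39, with log2 differences from -0.62 (Usp39) to -0.33 (Gba2).

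**Figure D2:**
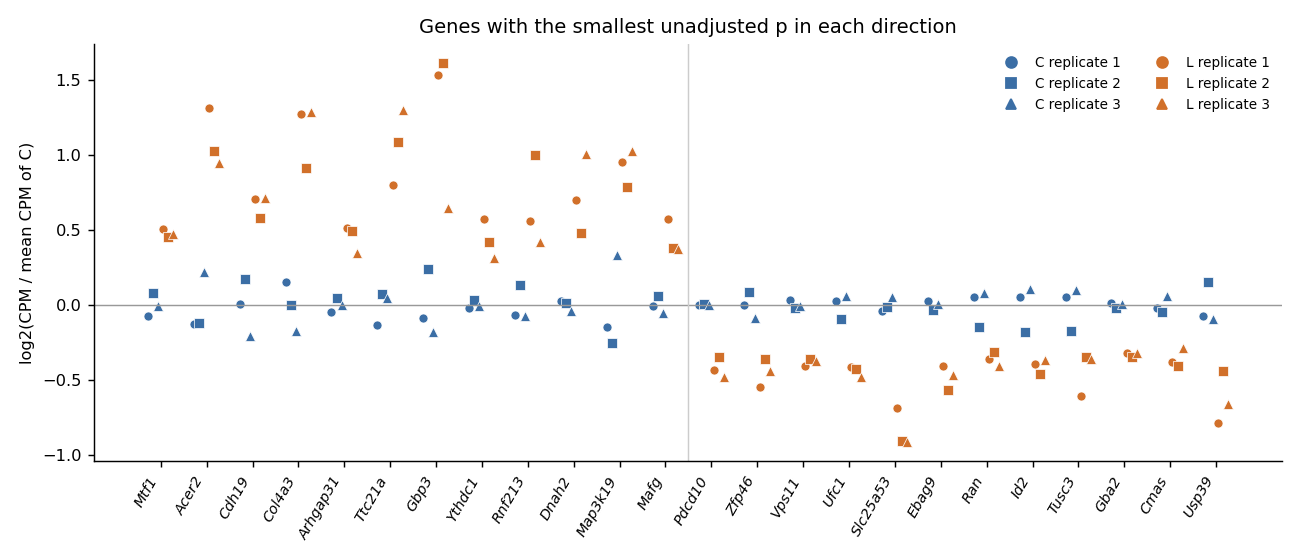
Value of each library relative to the mean of C, as log2 of the CPM ratio, for the 12 leading genes of each direction, blue for C and orange for L. The L points of each gene lie on one side of its C points, which the choice of genes required, and the 3 L values of Mtf1 lie between 63.2 and 65.6 CPM.

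Leaving out L1 brought other genes forward. Among genes averaging 5 CPM or more whose L2 and L3 values lay on one side of C, as 1766 did upward (12.8%) and 1811 downward (13.1%), Gvin1, a very large interferon-inducible GTPase gene (chromosome 7, 106156556 to 106215326, minus strand), had the smallest p. It stood at 1.56, 2.00 and 0.429 CPM in C and at 3.47, 11.0 and 21.1 CPM in L, so L3 was highest and L1 was the L library nearest to C. Its log2 difference was 3.19 (SE 0.72) with 6 libraries and 3.64 (SE 0.52) without L1, where DESeq2 called it (adjusted p = 9.2e-09). DESeq2 also called it without both C1 and L1 (adjusted p = 5.39e-07). Gvin1 has near-identical neighbours, so its count is uncertain. Homer1, a scaffold of postsynaptic densities whose short form is activity-induced (chromosome 13, 93299635 to 93405129, plus strand), was at 341, 336 and 334 CPM in C and 365, 476 and 424 CPM in L, with L2 highest. Its difference was 0.32 (SE 0.10), and 0.42 (SE 0.08) without L1, where DESeq2 called it (adjusted p = 0.0340). It was not called without C1 or without both C1 and L1. Rgs11, a regulator of G protein signalling, was at 22.8, 23.3 and 22.8 CPM in C and 29.3, 33.8 and 31.8 CPM in L. Among those lower without L1, Rspo3, a Wnt agonist, was at 21.2, 19.0 and 22.4 CPM in C, 20.9 CPM in L1, and 13 and 12.2 CPM in L2 and L3. Kcnj9, a G protein-gated potassium channel subunit, was at 45.2, 40.6 and 47.0 CPM in C, 54.6 CPM in L1, and 30.6 and 32.4 CPM in L2 and L3. For Rspo3 and Kcnj9 the L1 value lay within or above C, so the arms overlapped with all 6 libraries.

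Interferon-induced genes encode antiviral sensors, GTPases and effectors that are switched on together through promoter elements called ISREs. The genes of this list were higher in L in 35 of 35 tested members, with a median log2 difference of 0.66, against 50.6% of all genes above 0 and a median of 0.00. With an unadjusted p under 0.05, 18 members were higher (against 4.76% of all genes) and 0 lower. Without L1, 34 of 36 were above 0 (51.2% of all genes) with a median of 0.72 and 18 higher. Without C1 the count was 16 of 37 (1.65% of all genes), and without both it was 13 of 36 (1.08%), with medians of 0.65 and 0.71. The median was lowest without L2, at 0.48, and the count then 14. Over all genes that count was 978 of 13931.

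Rsad2, Bst2, Ifit1 and Gbp3 are shown because they are the list members with a match that DESeq2 called with all 6 libraries. Sequence is from RefSeq promoters (GRCm38.p6), read in the direction of the gene, with matches to GAAA, any 2 bases and GAAA on either strand in capitals. A match was found within 250 bases upstream of the start in 10 of 28 list members with a RefSeq promoter (35.7%) and in 3.02% of 10068 tested genes with one. The same letters were found in 4 of 29 immediate early genes with one (13.8%). They were found in 0 of 20 endoplasmic reticulum chaperone genes and 0 of 17 cytosolic heat shock genes. Letters of other elements were also searched for, and not all are given here. A match is a description of letters and not a bound site, and overlapping matches are shown as 1 run. The windows are chr12:26456538-26456597 (minus strand, Rsad2), chr8:71537565-71537624 (minus strand, Bst2), chr19:34640769-34640828 (plus strand, Ifit1) and chr3:142559977-142560036 (plus strand, Gbp3).
Rsad2: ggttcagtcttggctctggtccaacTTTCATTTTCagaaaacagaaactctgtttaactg
Bst2: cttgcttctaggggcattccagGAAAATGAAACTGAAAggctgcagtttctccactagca
Ifit1: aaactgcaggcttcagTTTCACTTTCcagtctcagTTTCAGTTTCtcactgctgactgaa
Gbp3: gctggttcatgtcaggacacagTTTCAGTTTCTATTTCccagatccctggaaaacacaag

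The effector Rsad2, which encodes viperin, stood at 0.676, 1.18 and 0.858 CPM in C and at 2.08, 7.21 and 3.92 CPM in L. All of L lay above all of C and L2 was the highest, with a log2 difference of 2.29 (SE 0.51) and 2.64 (SE 0.42) without L1. Bst2, a membrane tether of virus particles, was at 1.15, 1.46 and 0.858 CPM in C and 4.70, 3.86 and 3.92 CPM in L, and its 3 L values lay close together. It differed by 1.86 (SE 0.35), and by 1.77 without L1. The RNA-binding Ifit1 was at 2.84, 4.1 and 2.45 CPM in C and 9.09, 17.7 and 4.69 CPM in L, so L3 came near to C2. Gbp3, a guanylate-binding GTPase, was at 3.92, 4.92 and 3.68 CPM in C and 12.1, 12.8 and 6.54 CPM in L. These are low counts, and Ifit and Gbp genes have near-identical relatives, so their counts are uncertain. The kinase Eif2ak2, which senses double-stranded RNA, was at 16.9, 18.8 and 15.4 CPM in C and 25.2, 33.8 and 23 CPM in L, a difference of 0.69 (SE 0.17). Rnf213, a giant ubiquitin ligase, was at 48.2, 55.2 and 47.9 CPM in C and 74.4, 101 and 67.4 CPM in L. In both, L2 was the highest library and no library overlapped the other arm.

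DESeq2 called Rsad2, Bst2, Ifit1, Gbp3 and Rnf213 with all 6 libraries and 0 interferon-list genes without C1. Without L1 it called Rsad2 (adjusted p = 0.00861), and without both C1 and L1 it called no gene of the list. Rsad2 without C1 had a log2 difference of 2.11 (edgeR unadjusted p = 0.00452), and Bst2 of 1.86 (edgeR unadjusted p = 0.00324).

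The antigen presentation list, which holds class I and class II molecules and the genes that load them with peptides, was above 0 in 12 of 13 tested members (median 0.59), with 4 higher at an unadjusted p under 0.05. Over fits without 1 library the higher count ran from 1 (without C1) to 7 (without L2, median 0.82). Over all genes, 229 of 13873 were higher without C1 and 978 of 13931 without L2. B2m, the light chain of class I molecules, was at 41.4, 41.8 and 37.7 CPM in C and 87.9, 45.0 and 51.0 CPM in L. L1 was far above the rest and also held the liver transcripts. Without L1 the log2 difference of B2m was 0.25 (SE 0.11) against 0.61 (SE 0.22) with it, and the list median was 0.25 with 2 members higher and 1 lower. Without both C1 and L1, 0 members reached an unadjusted p under 0.05 in edgeR. H2-D1, a class I heavy chain with near-identical relatives, was at 10.2, 9.48 and 10.8 CPM in C and 19.2, 11.2 and 17.8 CPM in L. The acute phase and complement list, 12 of whose 28 listed members are also in the liver lists, had a median of 0.51 over 12 tested members, and 0.03 without L1.

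**Figure D3:**
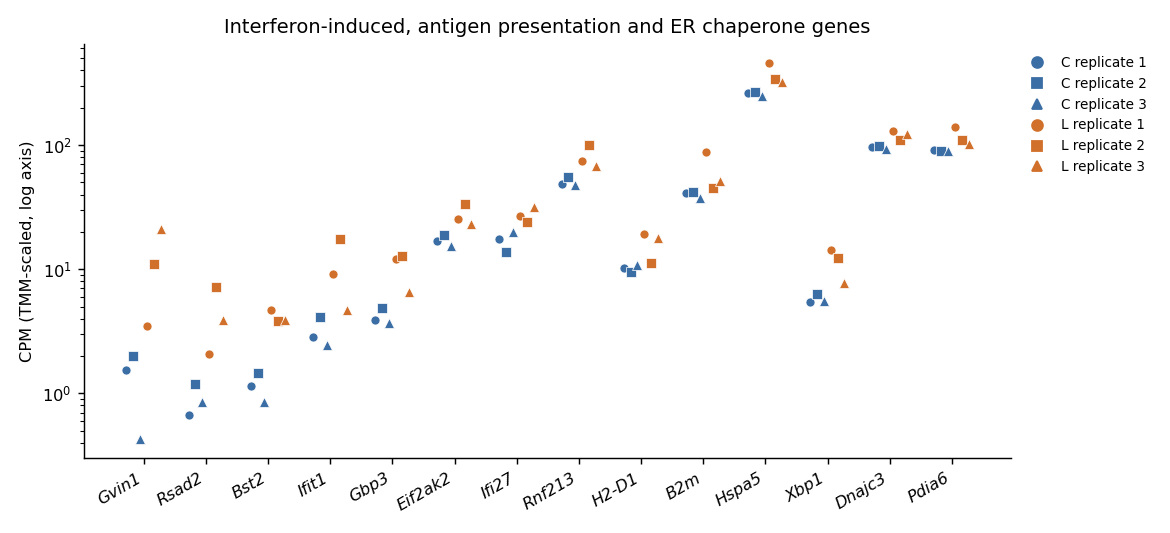
CPM (log axis) of interferon-induced, antigen presentation and endoplasmic reticulum chaperone genes in each library, blue for C and orange for L. For Rsad2 and Bst2 every L point lies above every C point, and L1 is the highest point for B2m and Hspa5.

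Chaperones of the endoplasmic reticulum fold secreted and membrane proteins and are induced together when unfolded protein builds up, through elements called ERSEs that ATF6 and XBP1 recognise. Of 23 tested members, 19 were above 0 with a median log2 difference of 0.19, and 9 were higher and 0 lower at an unadjusted p under 0.05 (4.76% of all genes were higher). Without L1 the median was 0.16 with 6 higher. Without C1 it was 0.23 with 6 of 24 higher, and without both it was 0.18 with 1 of 23 higher, which was Hspa5.

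The ERSE letters, CCAAT, any 9 bases and CCACG, were found, on either strand, in 8 of 20 members with a RefSeq promoter (40%) and in 0.169% of tested genes with one. Those of the 4 such members with the smallest p are shown, in capitals, from chr2:34772004-34772063 (plus strand, Hspa5), chr14:118937806-118937865 (plus strand, Dnajc3), chr12:17266470-17266529 (plus strand, Pdia6) and chr10:86705513-86705572 (minus strand, Hsp90b1).
Hspa5: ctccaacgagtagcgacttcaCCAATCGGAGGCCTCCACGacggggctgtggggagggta
Dnajc3: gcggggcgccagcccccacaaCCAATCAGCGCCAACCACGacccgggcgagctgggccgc
Pdia6: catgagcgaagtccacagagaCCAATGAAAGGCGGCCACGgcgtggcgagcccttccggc
Hsp90b1: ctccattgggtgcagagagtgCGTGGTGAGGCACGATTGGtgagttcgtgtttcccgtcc

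The master chaperone Hspa5, which encodes BiP, was at 263, 266 and 249 CPM in C and 460, 344 and 320 CPM in L. L1 was highest and L2 and L3 still lay above all of C. The log2 difference was 0.53 (SE 0.12), and 0.36 (SE 0.08, unadjusted p = 0.00191) without L1 and 0.37 (unadjusted p = 0.0148) without both C1 and L1. Xbp1, the transcription factor of the response (chromosome 11, 5520659 to 5525893, plus strand), was at 5.41, 6.29 and 5.58 CPM in C and 14.3, 12.4 and 7.74 CPM in L, with a difference of 1.00 (SE 0.24) and 0.82 without L1. Dnajc3, a co-chaperone, was at 96.1, 98.9 and 92.4 CPM in C and 130, 111 and 122 CPM in L, a difference of 0.34 (SE 0.08). The difference of Dnajc3 ran from 0.28 to 0.40 over fits that left out 1 library. Pdia6, a disulfide isomerase, was at 92.1, 89.0 and 89.5 CPM in C and 139, 109 and 102 CPM in L, and Hsp90b1 at 414, 423 and 399 CPM in C and 522, 459 and 477 CPM in L. In all 5 genes L1 was the highest library. It was the library with liver transcripts, and their part in these values was not tested beyond the fits without it.

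Cytosolic heat shock proteins had 19 of 21 tested members above 0 (median 0.18). At an unadjusted p under 0.05, 8 were higher and 0 lower, against 4.76% and 4.15% of all genes. The higher count was 5 without L1, 4 without C1, 4 without L3 and 3 without both C1 and L1. Over all genes, 624 of 13783 were higher without L1 and 229 of 13873 without C1. The number was 744 of 13911 without L3 and 148 of 13656 without both. Hspa1a, the stress-inducible member with a near-identical copy in Hspa1b, was at 5.55, 4.83 and 4.60 CPM in C and 7.78, 7.81 and 10.8 CPM in L. Hsph1, which recycles its partner chaperones, was at 327, 306 and 349 CPM in C and 384, 382 and 424 CPM in L, and Dnajb1 was at 30.5, 25.0 and 34.9 CPM in C and 38.1, 38.7 and 56.3 CPM in L. For these 3 genes L3 was the highest library and the arms did not overlap.

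Immediate early genes were higher in L in 29 of 38 tested members (median log2 difference 0.19), with 12 higher and 0 lower at an unadjusted p under 0.05, against 4.76% and 4.15% of all genes. Without L1, 31 of 39 were above 0 (median 0.24) with 9 higher. Without C1 the median was 0.21 with 9 higher (1.65% of all genes), and without both it was 0.20 with 9 higher (1.08%). Members near the top were of all kinds, from the AP-1 subunits Fos and Fosb and the zinc finger factors Egr1 and Egr2 to the dendritic effector Arc.

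Among the transcription factors, Fos was at 10.3, 8.47 and 13.5 CPM in C and at 15.4, 17.6 and 30.4 CPM in L. L3 was well above L1 and L2, and C3 came nearest to L. The log2 difference of Fos was 0.95 (SE 0.27, unadjusted p = 0.00545), 1.14 without L1 and 0.92 without C1. Fosb was at 3.92, 5.01 and 4.60 CPM in C and 9.24, 9.61 and 7.30 CPM in L, and its difference was 0.96 (SE 0.22). Egr1 was at 111, 89.3 and 129 CPM in C and 143, 136 and 200 CPM in L, a difference of 0.53 (SE 0.17) in which C3 and L2 nearly met. Egr2 was at 3.72, 2.10 and 5.03 CPM in C and 6.31, 10.3 and 11.1 CPM in L. Klf10 was at 31.2, 29.4 and 34.0 CPM in C and 41.4, 46.4 and 40.1 CPM in L, with no overlap.

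The effectors followed the same order of libraries in part. Arc, which scaffolds AMPA receptor endocytosis at synapses, was at 99.8, 89.0 and 115 CPM in C and 123, 146 and 212 CPM in L. L3 was well above the other L libraries, and L1 was the L library nearest to C. Its log2 difference was 0.66 (SE 0.18) with 6 libraries, 0.82 (SE 0.17) without L1, 0.65 without C1 and 0.81 without both (unadjusted p = 0.00204). DESeq2 called Arc without L1 (adjusted p = 0.00861), but not without C1 or without both C1 and L1. With all 6 libraries its adjusted p was 0.0752.

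Other immediate early genes overlapped between the arms. Npas4, a neuron-specific factor that follows calcium entry, was at 13, 10.1 and 15.4 CPM in C and 12.6, 12.3 and 14.2 CPM in L, a log2 difference of 0.01 (SE 0.19). Nr4a1, an orphan nuclear receptor, was at 30.1, 20.3 and 36.7 CPM in C and 30.1, 26.6 and 53.1 CPM in L, with L3 again highest (0.32, SE 0.29). Bdnf, the neurotrophin, was at 56.1, 64.3 and 53.9 CPM in C and 60.2, 67.1 and 55.6 CPM in L (0.07, SE 0.11). These values do not show that the 3 genes were equal between the arms.

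**Figure D4:**
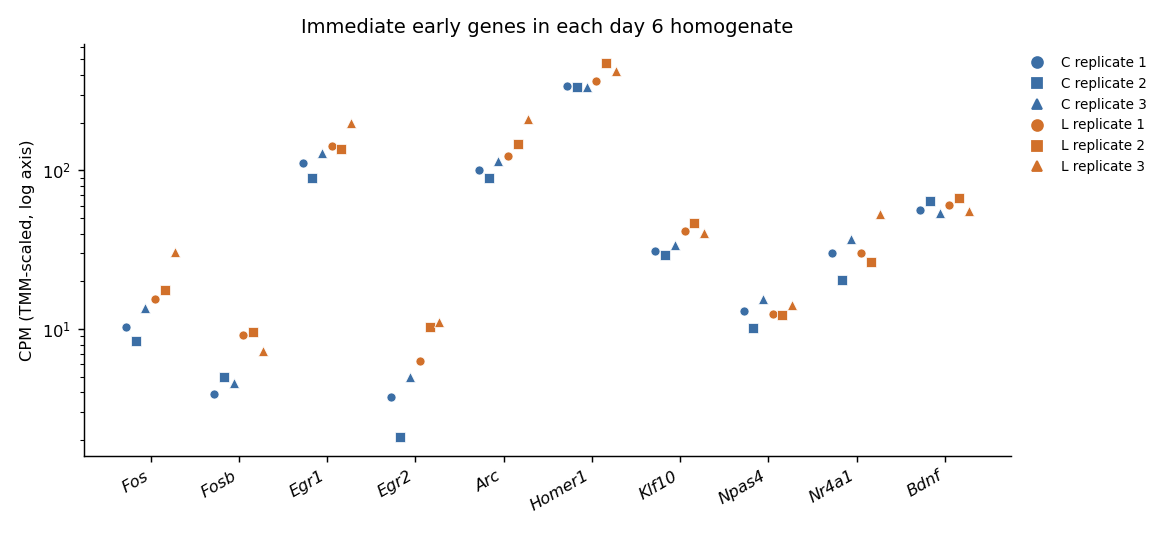
CPM (log axis) of 10 immediate early genes in each library, blue for C and orange for L. Every L point lies above every C point for Fos, Fosb, Egr1, Egr2, Arc, Homer1 and Klf10, and the arms overlap for Npas4, Nr4a1 and Bdnf.

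Glucocorticoid-induced genes, which answer stress hormone, were above 0 in 19 of 22 tested members (median 0.39). At an unadjusted p under 0.05, 9 were higher and 0 lower, against 4.76% and 4.15% of all genes. The higher count was 6 without L1, 3 without C1, 3 without C3, 6 without L3 and 1 without both C1 and L1. Over all genes, 624 of 13783 were higher without L1, 229 of 13873 without C1 and 444 of 13841 without C3. The number was 744 of 13911 without L3 and 148 of 13656 without both. The list median stayed between 0.26 and 0.47 in every fit that left out 1 library. Zbtb16, a transcription factor, was at 118, 139 and 105 CPM in C and 190, 175 and 134 CPM in L, so L3 lay below C2. Errfi1, an inhibitor of epidermal growth factor receptors, was at 59.7, 68.7 and 51.4 CPM in C and 91.6, 94.8 and 67.8 CPM in L and overlapped in the same way. Tsc22d3, which encodes the glucocorticoid-induced leucine zipper, was at 54.3, 68.6 and 46.1 CPM in C and 70.8, 75.8 and 70.6 CPM in L. C2 was the highest C library for each of these 3 genes.

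In the hypoxia list 10 of 15 tested members were above 0 (median 0.02). At an unadjusted p under 0.05, 4 were higher and 1 lower, against 4.76% and 4.15% of all genes. Without L1, 9 of 15 were above 0 with a median of 0.14, 3 higher and 0 lower. Vegfa, the vascular growth factor, was at 48.0, 43.2 and 48.9 CPM in C and 77.8, 56.3 and 62.5 CPM in L, a log2 difference of 0.49 (SE 0.13) and 0.35 without L1. Slc2a1, the glucose transporter of the blood-brain barrier, was at 53.5, 61.9 and 49.7 CPM in C and 68.9, 77.1 and 71.3 CPM in L (0.40, SE 0.10). P4ha1, a collagen hydroxylase, was at 70.1, 64.1 and 74.1 CPM in C and 86.9, 92.1 and 89.4 CPM in L (0.37, SE 0.09, and 0.39 without L1), and the arms did not overlap for these 3 genes. Flt1, of the endothelial list, the receptor for the factor that Vegfa encodes, was at 101, 103 and 99.0 CPM in C and 126, 120 and 123 CPM in L (0.29, SE 0.07). Flt1 and Slc2a1 are the endothelial markers with the smallest p, and that list had 8 of 23 members above 0 (median -0.02), with 2 higher and 1 lower, and a median of -0.05 with 2 higher and 0 lower without L1. Without C1 and L1 the unadjusted p was 0.0396 for Vegfa, 0.0250 for Slc2a1, 0.0193 for P4ha1 and 0.0628 for Flt1.

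Among genes that write, erase or read the RNA mark m6A, 7 of 14 were above 0 (median 0.01). At an unadjusted p under 0.05, 3 were higher (4.76% of all genes), which were Ythdc1, Zc3h13 and Alkbh5. Without L1 the median was 0.02 with 3 higher. Zc3h13, a part of the writer complex, was at 109, 115 and 110 CPM in C and 150, 126 and 133 CPM in L (0.30, SE 0.09). The eraser Alkbh5 was at 87.4, 88.7 and 83.3 CPM in C and 101, 92.3 and 111 CPM in L (0.23, SE 0.09). Mettl3, the catalytic writer, was at 19.4, 20.9 and 15.6 CPM in C and 23.7, 24.3 and 18.6 CPM in L and overlapped (0.26, SE 0.16). Without both C1 and L1 the unadjusted p was 0.0306 for Ythdc1, 0.136 for Zc3h13 and 0.120 for Alkbh5.

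Transcripts of translation and energy metabolism had small negative medians. Of 77 cytosolic ribosomal protein genes, 16 were above 0 and the median log2 difference was -0.12, with 1 higher and 11 lower at an unadjusted p under 0.05 (4.15% of all genes were lower). Leaving out 1 library gave medians from -0.20 (without C2) to -0.05 (without C3) and counts of lower members from 5 (without L3) to 27 (without C2). The count was 6 without C1, 6 without C3 and 10 without L1, where the median was -0.18. Over all genes, 786 of 13938 were lower without C2 and 655 of 13911 without L3. Rps3a1, a small-subunit protein, was at 260, 268 and 260 CPM in C and 230, 223 and 190 CPM in L, and Rplp0, of the ribosomal stalk, at 146, 144 and 146 CPM in C and 113, 129 and 122 CPM in L, with no overlap. Rpl35 was at 138, 135 and 137 CPM in C and 101, 122 and 91.2 CPM in L. Fau, which encodes a fusion of a ubiquitin-like protein with a ribosomal protein, was the 1 member higher, at 35.2, 41.2 and 30.9 CPM in C and 64.1, 47.7 and 41.1 CPM in L. These genes have many near-identical pseudogene copies, so single values are uncertain.

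Nuclear-encoded oxidative phosphorylation genes had 20 of 73 members above 0 (median -0.11), with 0 higher and 7 lower. The lower count was 6 without L1 (median -0.14), 0 without C1, 19 without C2, 1 without C3, 4 without L2 and 0 without L3. The number of lower genes over all tested also moved, to 786 of 13938 without C2, 317 of 13841 without C3 and 775 of 13931 without L2. Ndufb6, a subunit of complex I, was at 35.2, 28.2 and 39.0 CPM in C and 27.6, 26.2 and 24.6 CPM in L. Proteasome subunit genes had 4 of 31 above 0 (median -0.12), with 2 lower, and 2 without L1 (median -0.10). Leaving out 1 library gave 0 (without C1 or C3) to 6 (without L2). In C2 and C3 these lists lay on opposite sides of C1. The summed ribosomal protein level, for example, was 7565, 6284 and 8405 CPM in C1, C2 and C3 and 6979, 6221 and 6721 CPM in L1, L2 and L3, so C2 overlapped L.

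Of 30 postsynaptic density genes 24 were above 0 (median 0.07), with 2 higher, Homer1 and Baiap2, and 1 lower, against 4.76% and 4.15% of all genes. Without L1 the median was 0.06 with 1 higher and 2 lower. Over fits without 1 library the median ran from 0.03 (without C3) to 0.11 (without C2) and the higher count from 1 to 7 (without C2). Over all genes, 859 of 13938 were higher without C2. Dlg1, a scaffold of the PSD-95 family, was the lower one, at 27.3, 29.4 and 26.2 CPM in C and 22.5, 24.0 and 19.9 CPM in L. Of 14 GABA receptor genes 2 were above 0 (median -0.09), and 3 without L1 (median -0.11). Slc17a6, the vesicular glutamate transporter of the thalamus and subiculum (chromosome 7, 51622006 to 51671119, plus strand), was at 35.6, 35.1 and 35.7 CPM in C and 16.2, 27.0 and 29.2 CPM in L, with L1 lowest. Its log2 difference was -0.56 (SE 0.19), and -0.34 without L1. Of 17 neuropeptide precursor genes 7 were above 0 (median -0.08, and -0.20 without L1), with 1 higher and 2 lower. Chgb, a secretory granule protein gene, was the higher one, at 304, 356 and 268 CPM in C and 449, 349 and 360 CPM in L, and overlapped (0.32, SE 0.12, and 0.20 without L1). Adcyap1, the precursor of the neuropeptide PACAP, was at 9.27, 6.74 and 10.7 CPM in C and 6.08, 4.46 and 5.67 CPM in L. Vip, a peptide of interneurons, was at 13.8, 13.2 and 15.1 CPM in C and 11.3, 11.2 and 8.61 CPM in L, and interneuron markers had 10 of 23 members above 0 (median -0.08) with 0 higher and 1 lower, and 3 higher and 3 lower without L1 (median -0.11).

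Markers of other cells moved with single libraries. Choroid plexus markers were above 0 in 23 of 23 tested members (median 0.42), with 3 higher and 0 lower. Their summed level was 3512, 4541 and 2823 CPM in C1, C2 and C3 and 4350, 3762 and 6787 CPM in L1, L2 and L3, so L3 stood apart and the other libraries overlapped. Without L3 the median was 0.19 with 0 higher, without L2 it was 0.58 with 15 higher, and without C2 0.62 with 13 higher. The count was 1 without C1, 1 without C3 and 3 without L1, where the median was 0.51. Over all genes, 978 of 13931 were higher without L2, 859 of 13938 without C2 and 744 of 13911 without L3. The number was 229 of 13873 without C1 and 444 of 13841 without C3. Ttr, the thyroxine carrier that choroid plexus and liver both make, was at 1444, 1931 and 1156 CPM in C and 1938, 1531 and 2949 CPM in L. Ependymal markers had 15 of 19 above 0 (median 0.38) with 4 higher, 5 without L1 (median 0.59), 1 without C1 and 2 without L3, where the median was -0.02. Their sum was 353 CPM in L3 and 210 to 224 CPM in the other 5 libraries. Drc1, a dynein regulator of cilia, was at 8.18, 6.47 and 11.6 CPM in C and 14.8, 12.4 and 14.5 CPM in L, and so stood above C in every L library. Myelin markers had a median of 0.15 with 3 higher, 0.30 with 2 higher without L1, and -0.03 with 0 higher without L3. Mbp was at 1556, 1808 and 1386 CPM in C and 1331, 1556 and 2335 CPM in L.

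Microglia markers had 6 of 20 above 0 (median -0.19), with 0 higher and 4 lower, 3 lower without L1, 2 without C2 and 0 without C1. Over all genes, 786 of 13938 were lower without C2 and 154 of 13873 without C1. Cx3cr1, the fractalkine receptor of microglia, was at 42.5, 42.2 and 40.8 CPM in C and 35.7, 32.6 and 31.5 CPM in L, with no overlap (-0.33, SE 0.10). Siglech, another microglial receptor, was at 16.6, 16.5 and 15.1 CPM in C and 11.3, 12 and 12.2 CPM in L (-0.44, SE 0.14). The complement gene C1qa and the receptor gene Trem2 overlapped between the arms, at log2 differences of -0.01 and 0.15. Mural cell markers had 5 of 14 above 0 (median -0.21, and 0.02 without L2), with 3 lower, 1 without C3 and 4 without L1, where the median was -0.34. Atp13a5, a pericyte ATPase, was at 29.2, 34.4 and 28.9 CPM in C and 23, 24.2 and 22.1 CPM in L (-0.41, SE 0.12), and the smooth muscle actin gene Acta2 was at 25.8, 15.0 and 30.3 CPM in C and 15.3, 13 and 15.7 CPM in L. C2 lay among the L libraries for Acta2, and it was also low for meningeal transcripts, which summed to 1194, 444 and 1681 CPM in C and 667, 441 and 1432 CPM in L.

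Pituitary hormone transcripts were found mainly in C1 and C3. Gh, growth hormone, was at 17.2, 1.37 and 29.05 CPM in C and 0.077, 0 and 0.436 CPM in L, where 0 in L2 allows up to 0.253 CPM. Pomc, the precursor of corticotropin, was at 19.8, 0.911 and 33.2 CPM in C and 0.770, 1.03 and 0.654 CPM in L. Prl, prolactin, was at 8.66, 0.638 and 15.0 CPM in C and 0.231, 0 and 0 CPM in L. The levels in C1 lay between those of C2 and C3, as for the genes above. In the fit without C2, whose C arm is then C1 and C3, edgeR called all 3 genes lower in L. The weighted sum described above drew 60.7% of the counts of C1 from C3, so the C libraries of that fit were not independent. DESeq2 called Gh with all 6 libraries (log2 difference -6.59, adjusted p = 0.0368).

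**Figure D5:**
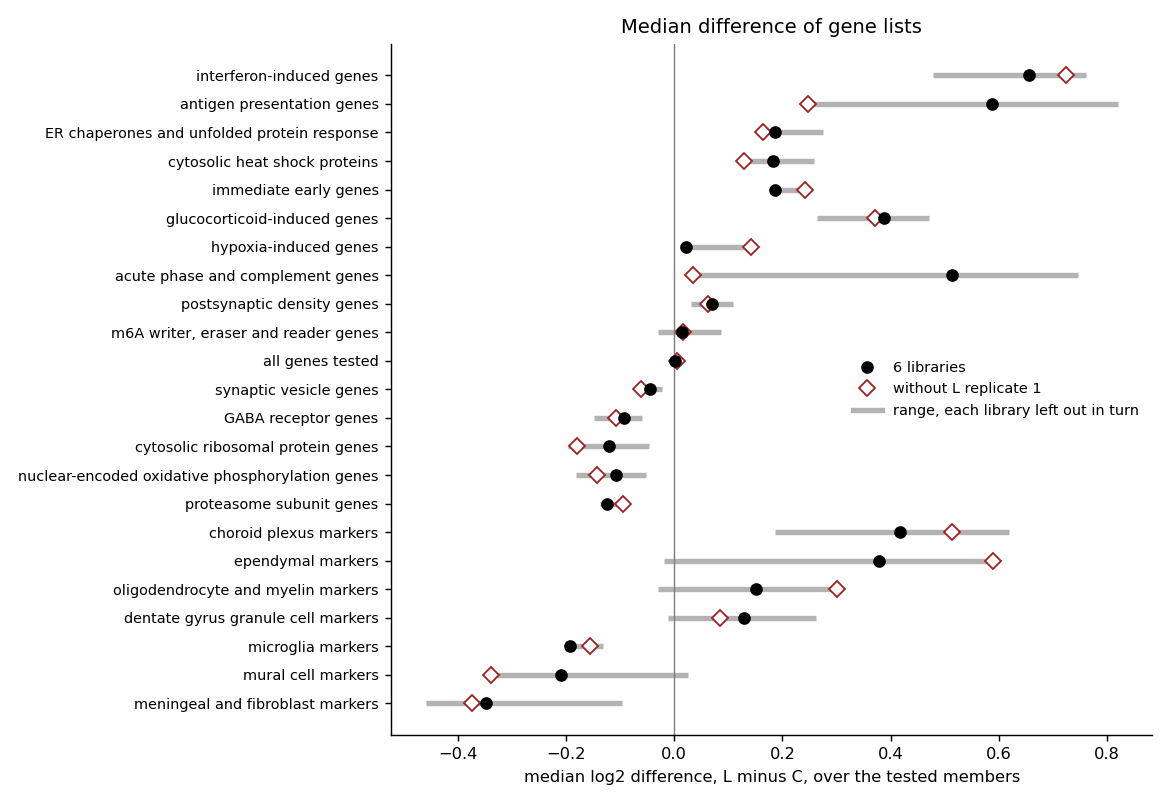
Median log2 difference of L minus C over the tested members of gene lists, with all 6 libraries (black points), without L1 (open diamonds) and the range over fits that each left out 1 library (grey bars). Among the lists plotted, which leave out the liver and pituitary lists, the interferon-induced list has the largest black-point value, 0.66, and the choroid plexus, ependymal, antigen presentation and acute phase lists have wide bars.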

How the data were processed

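RNA-seq counts of 6 day 6 hippocampus homogenates were used, 3 of each arm. Directional dUTP libraries were made from Trizol-extracted RNA after removal of ribosomal RNA, per the labels' protocols. The submitters' processing notes name HISAT2 2.0.4, HTSeq 0.9.1, cutadapt 1.9.3, edgeR and the mm10 build, without their order. No source used here gives the annotation or whether counting used strand, so antisense overlap cannot be told apart. The authors deposited raw read counts per gene in 1 table for the homogenates. The other 6 libraries of the series, of a synapse fraction, were not used here.

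Counts were tested in R 4.3.3 with edgeR 4.0.16 (filterByExpr, TMM scaling, robust quasi-likelihood fit, Benjamini-Hochberg adjustment over all genes tested, threshold 0.05), without pairing. DESeq2 1.42.0 and limma-voom (limma 3.58.1) were alternatives, with other scalings and filters and with each library left out. DESeq2 without C1 and without C1 and L1 was added after the data were examined. Levels of named genes are TMM-scaled CPM and summed levels are CPM of the library total. To find shared counts, each library was fitted as a weighted sum of 2 others over genes. The edgeR fit was tested on simulated data.

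Genes were named by a rule: the 12 per direction with the smallest p at a mean of at least 5 CPM and no overlap between arms, 8 per direction in the fit without L1, up to 6 members of a list, and a set of genes always given. Some that the rule named are not printed, and predicted genes and pseudogenes were counted only. Ifit1, C1qa, Trem2, Prox1 and Actg1 were chosen after their values were seen. Members, lists and the liver and pituitary lists were chosen with earlier results of these data known, so list counts are descriptions without a set test. Coordinates are from GENCODE M21 (GRCm38), which held 140 of 140 genes looked up by Ensembl identifier. Promoter sequences are from RefSeq (GRCm38.p6).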

Additional observations from a re-analysis of the deposited data

Results flagged for a closer look

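Alb had 21975 counts in L1 and 0 in each of the other 5 libraries, and the filter on low counts kept it out of the test. It is a signal outside the comparison of the arms and above the level of the C libraries. The same holds for 61 genes of the liver lists that had counts in L1 and in no other library. Over all genes listed, 97 had at least 50 counts in L1 and 0 in every other library, of which 52 are in the liver lists, and no other library had such a gene. With 3 libraries in each arm, no test for a single outlying library was made.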

How the results depend on the processing

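With 6 libraries, DESeq2 called 13 genes and edgeR with a replicate block called 1, against 0 in the edgeR test without it, and fits that left out 1 library called 0 to 3. DESeq2 without C1 and L1 called 2. Genes at an unadjusted p under 0.05 numbered 383 to 1753 over fits that left out 1 library, 252 without replicate 1 in both arms, and with DESeq2 322 without C1 and 165 without C1 and L1. Without L1, DESeq2 called 5 genes and a replicate block 4 (Arc, adjusted p = 0.0225, Zic1, Gh and Prl), while the unadjusted count was 632 with the replicate block and 252 to 1889 when a further library was left out. The column headers share a code between the C and L library of each number, but no label says what it marks. The correlation of deviations between same-numbered libraries was 0.01, 0.25 and 0.18, where C1, being close to a sum of C2 and C3, deviates little from its arm. By the rule that every pair exceed 0.1, the numbers were not taken to pair the samples, although C2 and C3 correlated best with L2 and L3, and C1 with L3. As C1 had little deviation of its own to correlate, that rule cannot decide whether the numbers pair the samples. The block is therefore only an alternative, and a call lost or gained under it is not read as a weaker or stronger effect. The log2 difference of Npas4 turned negative with limma-voom (-0.00714), and over fits that left out 1 library it ran from -0.13 (without C replicate 2) to 0.16 (without C replicate 3), with -0.05 without L replicate 3. That of Nr4a1 ran from -0.041 (without L replicate 3) to 0.52 (without C replicate 3). Leaving out L replicate 3 also turned Mbp (-0.13 to 0.30 over fits without 1 library), Zic1 (-0.099 to 1.05) and Prkcd (-0.18 to 0.70). Leaving out L replicate 2 turned Trem2 (-0.18 to 0.53), mt-Co3 (-1.13 to 2.17), mt-Nd3 (-0.18 to 1.75) and mt-Nd4l (-0.76 to 1.66), and leaving out C replicate 3 turned Prox1 (-0.036 to 0.34). C1qa ran from -0.098 to 0.097, with 0.14 without replicate 1 in both arms, and with DESeq2 it was 0.032 without C1 and 0.14 without C1 and L1. The cause was not tested. No other gene named with a log2 difference or library values changed direction under an alternative to the fit of 6 libraries. For alternatives to the fit without L1, directions of single genes were not compared. No scaling moved the median of all genes by over 0.1. The share of higher genes among those at an unadjusted p under 0.05 was 53.4% and lay between 48.9% (replicate block) and 66.8% (DESeq2 without C1). At totals of 9100192 to 15950350 counts, levels under 0.188 to 0.330 CPM cannot be told from 0.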

Other observations

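The gene lists described in this paragraph had median log2 differences from -0.07 to 0.13, which do not show that the arms were equal. NRF2 target genes, which encode antioxidant enzymes, had 3 of 13 tested members above 0 (median log2 difference -0.07), with G6pdx, the first enzyme of the pentose phosphate pathway, lowest in p at 25.0, 22.0 and 25.0 CPM in C and 15.4, 17.0 and 19.2 CPM in L. Cholesterol synthesis genes had 14 of 21 above 0 (median 0.02) and 0 at an unadjusted p under 0.05, against 8.92% of all genes. Circadian clock genes had 11 of 18 above 0 (median 0.01), and voltage-gated potassium channel genes 12 of 31 (median -0.06), with Kcnv1, a modifier subunit, at 70.2, 67.3 and 77.0 CPM in C and 59.9, 56.4 and 57.8 CPM in L. Dentate granule cell markers had 16 of 20 above 0 (median 0.13) and 0 at an unadjusted p under 0.05. Without C2, 5 were higher, where 859 of 13938 genes were higher over all, and the median was -0.01 without C3. Of 21 astrocyte markers 10 were above 0, and 12 without L1 (median 0.02). For the NRF2, cholesterol, clock, potassium channel and dentate lists, fits without L1 gave a median within 0.10 of the value given here.

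The 5 mitochondrially encoded genes listed summed to 3143, 3944 and 3459 CPM in C and 5158, 4642 and 4304 CPM in L, so every L library lay above every C library. All 5 had log2 differences above 0 (median 0.60), with 1 higher at an unadjusted p under 0.05, 0 without L1 (median 0.84), and 2 of 5 above 0 without L2 (median -0.18). Single members followed libraries. mt-Co3, a subunit of cytochrome c oxidase, was at 128, 1008 and 173 CPM in C and 175, 1637 and 222 CPM in L, so C2 and L2 stood far above the rest, and mt-Nd3 and mt-Nd4l did the same. mt-Nd4 was at 2419, 2505 and 2517 CPM in C and 3683, 2516 and 3187 CPM in L. mt-Co3, mt-Nd3 and mt-Nd4l in C1 were also among the few genes that lay far below the weighted sum of C2 and C3. Zic1, a marker of thalamus and cerebellum, was at 38.4, 20.8 and 49.2 CPM in C and 24.6, 43.4 and 108 CPM in L, and Prkcd at 29.8, 27.3 and 31.6 CPM in C and 16.9, 35.7 and 60.8 CPM in L, both highest in L3. The thalamus list that holds both had 12 of 16 tested members above 0 (median 0.11). At an unadjusted p under 0.05, 1 was higher and 1 lower, against 4.76% and 4.15% of all genes. Without L1, 11 of 17 were above 0 (median 0.13), with 4 higher and 1 lower, against 4.53% and 4.0%. The median was 0.07 without L3. Slc17a6, of the same list, had a negative log2 difference.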
